A study of Homo sapiens with 6 samples.

Results

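The genes of retinoic acid binding, reception and degradation were examined in H526 cells, a human small cell lung cancer line, and in H526 cells that had become resistant to onvansertib, an inhibitor of the mitotic kinase PLK1. They are 10 genes of 62710 in the table: the cellular retinoic acid binding proteins *CRABP1* and *CRABP2*, the retinoic acid receptors *RARA*, *RARB* and *RARG*, the retinoid X receptors *RXRA*, *RXRB* and *RXRG*, and the retinoic acid hydroxylases *CYP26A1* and *CYP26B1*. The genes were listed by name for their roles, but the list was chosen on values of these same libraries, the normalized values of parental against resistant cells. Their differences between the groups are therefore given as a description, with no p-value.

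Parental cells (libraries 1, 2 and 3) were untreated H526. Resistant cells (libraries 7, 8 and 9) came from the same line, kept for a year in onvansertib raised from 10 to 75 nM, and neither the labels nor the methods name a second, independently derived resistant line. The labels give a single serum-containing medium for all samples, to which onvansertib was added for the resistant cells, and RNA was taken from each at 3 separate times, so the spread between libraries is that between extractions. Whether the drug was in the medium at harvest is not given in the sources used here, and acquired resistance and drug exposure cannot be told apart. The values are gene counts that the authors normalized with DESeq2, and they are called normalized values here. An estimated 22.3 to 28.5 M reads (M, mega) per library were assigned to genes, and 1 read was worth about 0.891 to 1.08. The reads were paired, and a pair is counted as 1 read here. The label of the cells was checked on markers: *POU2F3*, the factor that defines the tuft-cell type of this cancer, had normalized values of 24511 to 27873 over the 6 libraries, and the neuroendocrine factor *NEUROD1* had at most 5.49. Other neuroendocrine markers were present in parental libraries, *INSM1* at 5626 to 6729, *SYP* at 1192 to 1428 and *CHGA* at 210.1 to 306. The other tuft-type markers moved both ways. *AVIL* had means of 20954 in parental and 12018 in resistant libraries, and *ASCL2* of 8826 and 6376. *SOX9* had means of 12997 and 16495, *TRPM5* of 189 and 643 and *CHAT* of 54.6 and 181.

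Retinoic acid is made from vitamin A in the cell, by retinol dehydrogenases and then by retinaldehyde dehydrogenases. The cellular binding proteins carry it in the cytosol: CRABP2 is known to deliver it to the receptors in the nucleus, while CRABP1 is linked to its metabolism. There a retinoic acid receptor (RAR) paired with a retinoid X receptor (RXR) sits on a response element, most often a direct repeat of a half-site with 5 bases between the copies (DR5), holds corepressors without ligand and coactivators with it. Hydroxylases of the CYP26 family break retinoic acid down, and *CYP26A1* and *RARB* are classical targets that the receptors switch on themselves. The pathway is known for patterning the embryo and for promoting differentiation of epithelial, neural and blood cells.

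Promoters are shown for the genes on which the account turns: *CRABP1* and *CRABP2*, which were both higher in resistant cells, and *RARB* and *CYP26A1*, whose promoters carry the DR5 element. All 10 genes had entries among the RefSeq promoters of build GRCh38.p14, with 18 windows that reach from 250 bases before to 50 bases after a start. The half-sites searched, on both strands, were AGGTCA and its variants. These variants have T at the third base (AGTTCA), G at the first (GGGTCA) or both (GGTTCA). A DR5 element was found in 31 of 35116 windows of all genes (0.0883%) and in 2 of the 18 windows here. Repeats of the same half-sites with a spacer of 1 base (DR1) or 2 bases (DR2) were found in 0 of these 18 windows, and in 0.131% and 0.0399% of all windows. In *RARB* the element lies at chr3:25428210-25428226, 53 to 37 bases before the start of a shorter transcript inside the gene, and in *CYP26A1* at chr10:93073803-93073819, 90 to 74 bases before a second start, on the opposite strand. The 250 bases before the start are printed below from 5′ to 3′ on the strand of the gene, with the DR5 element in capitals: *CRABP1* at chr15:78340103-78340352 (plus strand), *CRABP2* at chr1:156705785-156706034 (minus strand), *RARB* at chr3:25428013-25428262 (plus strand) and *CYP26A1* at chr10:93073643-93073892 (plus strand).
CRABP1: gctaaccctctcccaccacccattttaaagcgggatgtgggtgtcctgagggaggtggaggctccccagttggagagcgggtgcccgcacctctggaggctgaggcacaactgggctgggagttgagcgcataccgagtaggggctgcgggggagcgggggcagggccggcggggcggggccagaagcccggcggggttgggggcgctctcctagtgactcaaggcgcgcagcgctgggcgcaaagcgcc
CRABP2: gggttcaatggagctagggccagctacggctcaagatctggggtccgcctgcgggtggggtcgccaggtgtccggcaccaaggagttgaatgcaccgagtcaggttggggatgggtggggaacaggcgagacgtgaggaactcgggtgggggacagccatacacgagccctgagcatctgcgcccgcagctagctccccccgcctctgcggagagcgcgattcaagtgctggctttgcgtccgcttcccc
RARB: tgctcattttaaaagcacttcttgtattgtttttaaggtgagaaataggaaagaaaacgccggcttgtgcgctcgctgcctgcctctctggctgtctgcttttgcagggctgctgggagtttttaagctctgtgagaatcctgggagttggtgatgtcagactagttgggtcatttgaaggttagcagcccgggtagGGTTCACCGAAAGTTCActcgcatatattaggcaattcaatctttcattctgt
CYP26A1: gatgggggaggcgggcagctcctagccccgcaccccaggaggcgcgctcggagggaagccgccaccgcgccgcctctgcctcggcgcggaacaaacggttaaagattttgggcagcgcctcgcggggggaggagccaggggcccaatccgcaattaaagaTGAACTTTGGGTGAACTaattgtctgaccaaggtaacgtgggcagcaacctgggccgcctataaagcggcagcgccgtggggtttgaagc
The *CRABP1* and *CRABP2* windows held no DR5 element, and 70% and 65.6% of their bases were G or C. The share was 46% in the printed *RARB* window and 64.4% in that of *CYP26A1*, close to that of *CRABP2*. A match or its absence in these windows describes the letters only.

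Both binding protein genes were higher in resistant cells. *CRABP1* (ENSG00000166426, chromosome 15 of GRCh38, 78340353 to 78348225) had normalized values of 71.1, 94.7 and 71.2 in parental libraries 1, 2 and 3 and of 623, 633 and 714 in resistant libraries 7, 8 and 9. Every resistant library lay far above every parental one. The means were 79.0 ± 13.6 and 657 ± 50.3 (SD, n = 3 each), a ratio of 8.31, and the log2 fold change of the normalized value + 1 was 3.05 (standard error 0.16). *CRABP2* (ENSG00000143320, chromosome 1, 156699606 to 156705816) had 42.1, 131 and 36.2 in parental and 353, 439 and 399 in resistant libraries. Again the groups did not overlap, but parental library 2 stood apart from the other parental libraries. The means were 69.9 ± 53.4 and 397 ± 42.9 (SD, n = 3 each), a ratio of 5.68 and a log2 fold change of 2.73 (standard error 0.40). Without parental library 2 the ratio was 10.1 for *CRABP2* and 9.23 for *CRABP1*. Parental library 2 was also the highest parental library for *CRABP1*, *RARA*, *RARB* and *RARG*. Over all 16347 genes tested it was no outlier: 3.97% of its values lay more than a log2 unit from the mean of the other 2 parental libraries, against 4.14% and 3.57% for libraries 1 and 3.

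**Figure D1:**
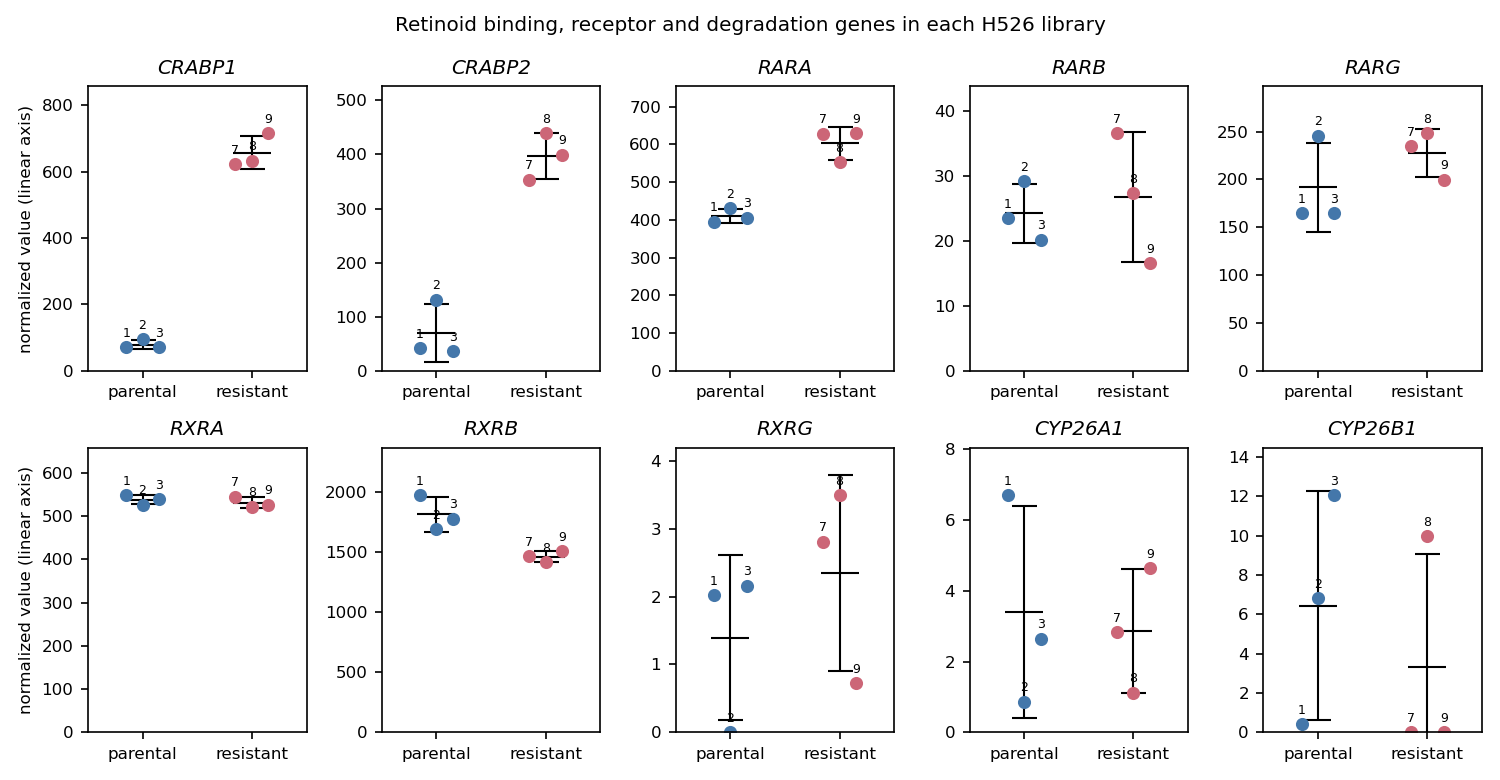
Normalized values (linear axes from 0, a scale for each gene) of the 10 genes in parental libraries 1 to 3 (blue) and resistant libraries 7 to 9 (red), with bars for the mean and SD of 3 libraries (axes start at 0, so the lower bar of resistant *CYP26B1* is cut there). The groups are apart for *CRABP1*, *CRABP2*, *RARA* (higher in resistant cells) and *RXRB* (lower), and overlap for the other genes.

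Other values moved with the same groups. In bulk RNA a change in the share of a kind of cell and a change of RNA per cell cannot be told apart. The summed fibroblast markers (*COL1A1*, *COL1A2*, *COL3A1* and *DCN*) ranged from 137 to 190.4 in parental and from 371 to 594 in resistant libraries, although *DCN* never passed 3.11 and *COL3A1* ranged from 13.6 to 26.2 and from 5.77 to 14.1. The endothelial sum ranged from 244 to 339 and from 452 to 491, nearly all of it *VWF*, with *PECAM1* at most at 0.198 and *CDH5* listed at 0 throughout. The neuroendocrine sum (*NEUROD1*, *INSM1*, *CHGA* and *SYP*) went the other way, from between 7029 and 8468 to between 1454 and 1689. The sum of the 6 tuft-type markers ranged from 68508 to 69329 in parental and from 62069 to 63479.5 in resistant libraries. The epithelial sum (*EPCAM*, *KRT8* and *KRT18*) ranged from 29555 to 32621.5 and from 24481 to 28042. The 3 leukocyte markers together reached at most 2.42. The part of these shifts in the values of the retinoid genes was not tested.

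Genes near a member on its chromosome were summarised as the median of the 25 tested genes on each side. Over all genes tested, 17.8% were past the test upwards and 19.8% downwards. Around *CRABP1*, between 75.6 and 80.8 Mb, this median log2 fold change was 0.41, with 28 of the 50 neighbours past the test upwards and 1 downwards. The log2 fold change of *CRABP1* itself was 2.63 above that median, but some neighbours reached or passed its 3.05, up to 4.68. Around *CRABP2* the median was 0.04, with 11 neighbours past the test upwards and 10 downwards, and the gene lay 2.70 above it. The highest neighbour of *CRABP2* had 3.37, against 2.73 for the gene. For *RARG* the setting was the reverse: between 51.2 and 54.0 Mb of chromosome 12 the neighbours had a median of -0.57, with 33 past the test downwards and 2 upwards, and *RARG* lay 0.83 above it. For the other 7 genes the neighbours' medians lay between -0.13 and 0.07. Gene copies were not measured, and the part of these regional shifts was not tested.

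**Figure D2:**
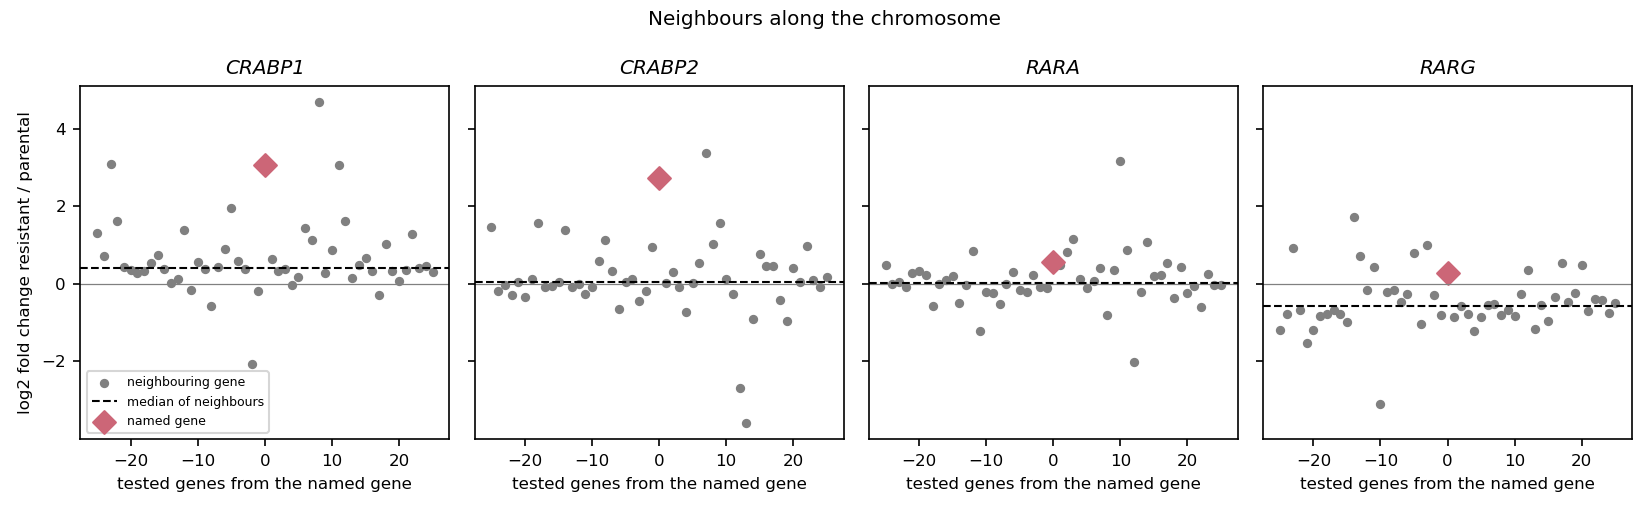
Log2 fold change (resistant over parental, y axis) of *CRABP1*, *CRABP2*, *RARA* and *RARG* (diamonds) and of the 25 tested genes on each side (grey points, x axis in genes from the named gene), with the neighbours' median as a dashed line. *RARG* sits at 0.27 in a stretch with a median of -0.57. *CRABP1* and *CRABP2* sit well above the medians of their neighbours, though single neighbours lie higher still, up to 4.68 and 3.37.

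Among the RAR genes, only *RARA*, the receptor most widely expressed in adult tissues, had groups that did not overlap. *RARA* (ENSG00000131759, chromosome 17, 40309180 to 40357643) had normalized values of 395, 431 and 406 in parental and of 628, 553 and 629 in resistant libraries. The lowest resistant library was well above the highest parental one. The means were 411 ± 18.1 and 604 ± 43.6 (SD, n = 3 each), a ratio of 1.47 and a log2 fold change of 0.55 (standard error 0.10). Its antisense gene *RARA-AS1* had means of 31.9 and 43.9, and since the counting is not stated to use strand, reads of the overlap cannot be assigned. *RARG* (ENSG00000172819, chromosome 12, 53210567 to 53232980), the receptor typical of skin, had 165, 246 and 165 in parental and 235, 248 and 199.8 in resistant libraries. Parental library 2 fell among the resistant libraries, and the log2 fold change was 0.27 (standard error 0.19), or 0.46 without that library. *RARB* (ENSG00000077092, chromosome 3, 24687887 to 25597932) had 23.5, 29.2 and 20.2 in parental and 36.5, 27.3 and 16.6 in resistant libraries. The resistant libraries held both the highest and the lowest value, and the log2 fold change was 0.09 (standard error 0.37). *RARB* is among the genes with the DR5 element printed above. Per kb of its longest transcript, *RARB* lay at percentile 6.19 of all tested genes in parental and 5.85 in resistant cells.

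Of the RXR genes, which serve as common partners of many nuclear receptors, *RXRB* was by far the most abundant. *RXRB* (ENSG00000204231, chromosome 6, 33193588 to 33200665) had normalized values of 1977, 1689.9 and 1779 in parental and of 1468, 1415 and 1509.8 in resistant libraries. All resistant libraries were below all parental ones. The means were 1815 ± 147 and 1464 ± 47.6 (SD, n = 3 each), a ratio of 0.807 and a log2 fold change of -0.31 (standard error 0.08). The gene overlaps *SLC39A7* on the other strand, whose means were 3304 and 2359, so that reads in the overlap cannot be told apart. *RXRA* (ENSG00000186350, chromosome 9, 134317098 to 134440585) had 549, 526.4 and 539 in parental and 545, 522 and 525.7 in resistant libraries. The groups overlapped, and on the log2 scale they differed by -0.02 (standard error 0.09). *RXRG* (ENSG00000143171, chromosome 1, 165400922 to 165445355), found mainly in muscle and brain, was at or under 3.49 everywhere. Its values were 2.02, 0 and 2.16 in parental and 2.80, 3.49 and 0.723 in resistant libraries, around the value of 3 reads, which averaged 2.84 in parental and 3.16 in resistant libraries and covers counting error only.

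Both hydroxylase genes were near the limit of detection in both groups. *CYP26A1* (ENSG00000095596, chromosome 10, 93073475 to 93077885) had normalized values of 6.70, 0.871 and 2.65 in parental and of 2.83, 1.12 and 4.64 in resistant libraries. A single library of each group was above the value of 3 reads. *CYP26B1* (ENSG00000003137, chromosome 2, 72129238 to 72147862) had 0.427, 6.82 and 12.1 in parental, was listed at 0 in resistant libraries 7 and 9, and had 9.97 in library 8. For both genes the libraries of the groups overlapped, and a difference was not detectable at this depth for either gene, nor for *RXRG*.

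Of the 10 genes, 7 had a mean of at least 10 and entered the fit over all 16347 genes. Past its threshold (adjusted p under 0.05) were 4 of them, *CRABP1*, *CRABP2* and *RARA* upwards and *RXRB* downwards, and for the same 4 the groups did not overlap. Over all genes tested 37.7% were past the threshold and 49.9% had groups that did not overlap. As the list was chosen on this contrast, nothing is read from the count. *RXRG*, *CYP26A1* and *CYP26B1* were not tested.

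To compare levels between genes, the normalized values were divided by the length of the longest transcript in kb. In parental cells the order was *RXRB* (629 ± 50.9 per kb), *RARA* (125 ± 5.53), *CRABP1* (107 ± 18.4), *RXRA* (93.2 ± 1.93), *CRABP2* (67.7 ± 51.7), *RARG* (65.7 ± 16.0) and *RARB* (4.96 ± 0.930, SD, n = 3 each), with *CYP26A1*, *CYP26B1* and *RXRG* between 0.619 and 1.52. The libraries of *RARA* and *CRABP1* overlapped, as did those of *RXRA* and *CRABP2* and those of *CRABP2* and *RARG*, so these neighbours in the order do not differ beyond their spread. In resistant cells *CRABP1* came first, with 890 ± 68.1 per kb, above *RXRB* with 508 ± 16.5, *CRABP2* with 384 ± 41.5, *RARA* with 184 ± 13.3, *RXRA* with 92.0 ± 2.15, *RARG* with 78.0 ± 8.55 and *RARB* with 5.48 ± 2.04 (SD, n = 3 each). There no neighbours among the first 7 overlapped. Among all tested genes, the level of *CRABP1* per kb lay at percentile 46.8 in parental and 89.6 in resistant cells, and that of *CRABP2* at 38.2 and 75.3.

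Summed per kb, the binding proteins rank differently against their receptors in the 2 groups. The sum of *CRABP1* and *CRABP2* lay between 131 and 256 per kb in parental and between 1186 and 1355 in resistant libraries. The 3 RAR genes summed to between 182 and 222 and between 259.6 and 279.9, and the 3 RXR genes to between 677 and 781 and between 582 and 615. The sum of the binding proteins thus overlapped that of the RAR genes in parental cells, and was above both receptor families in every resistant library. This order depended on the length used, a choice tried after the data were seen. With the mean transcript length the parental binding protein sum (169 to 327) lay below the RAR sum (404 to 503), while the resistant sum (1520.0 to 1737) stayed above both families. Without division by length, the resistant sum (976 to 1114) lay above the RAR sum (829 to 900.03) and below the RXR sum (1940.2 to 2036). Within the families the make-up was similar in both groups. *RARA* made up 64.3 ± 4.31% of the RAR sum in parental and 68.8 ± 3.85% in resistant cells, and *RARB* 2.52 ± 0.248% and 2.03 ± 0.699%. *RXRB* made up 87.0 ± 0.634% of the RXR sum in parental and 84.5 ± 0.545% in resistant cells, with *RXRA* at 12.9 ± 0.676% and 15.3 ± 0.441%. *CRABP1* made up 64.6 ± 12.6% of the binding protein sum in parental cells, where library 2 had 50.2%, and 69.8 ± 2.57% in resistant cells (SD, n = 3 each). Between the groups the library values overlapped for *RARA* and *CRABP1* but not for *RXRB*.

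**Figure D3:**
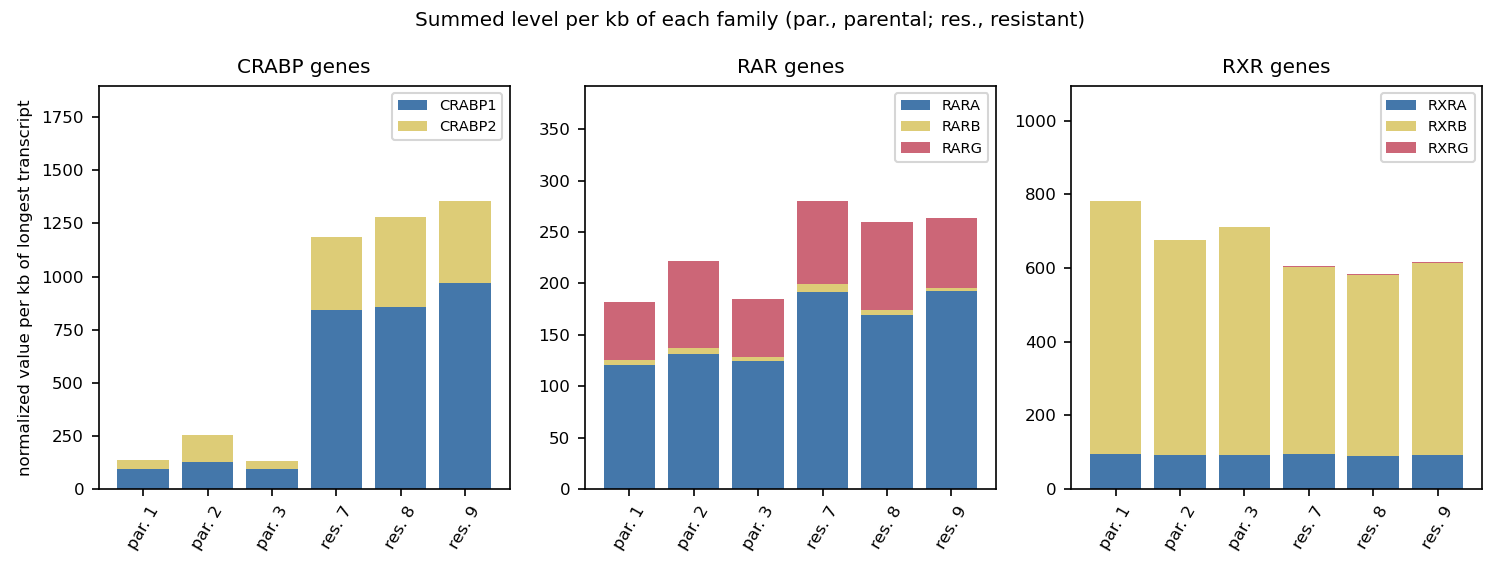
Normalized value per kb of the longest transcript (linear y axis from 0), stacked by gene, for the CRABP, RAR and RXR families in each parental (par.) and resistant (res.) library. The CRABP bars lie between 131 and 256 in parental and between 1186 and 1355 in resistant libraries, and *RXRB* fills most of every RXR bar.

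The other genes of the pathway were taken from 4 lists of 91 genes, of which 60 were tested. By limma with Benjamini-Hochberg adjustment over all genes, 23 were higher and 11 lower in resistant cells, 56.7% of those tested against 37.7% of all genes, where 17.8% were higher and 19.8% lower. The median log2 fold change was 0.23, against -0.00086 over all genes tested. The lists were made with earlier results of these data known, and no test of a list was run.

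In the list of uptake, storage and synthesis, 19 of 34 genes were tested, 5 rose and 5 fell, and the median log2 fold change was 0.01. *RBP7*, a cellular retinol binding protein, rose most, with 12.5, 41.0 and 26.8 in parental and 160.4, 147 and 158 in resistant libraries. As for *CRABP2*, parental library 2 was the highest of its group, and the groups did not overlap (log2 fold change 2.64, standard error 0.37, adjusted p = 0.000357). *ALDH1A1*, a retinaldehyde dehydrogenase and the most abundant of the family here, had means of 3613 ± 646 in parental and 1814 ± 173 in resistant cells (SD, n = 3) and fell on the log2 scale by 0.98 (adjusted p = 0.000156). Its relative *ALDH1A2* had 24.8, 56.6 and 27.2 in parental and 108, 45.7 and 57.6 in resistant libraries and did not pass (adjusted p = 0.0875). *BCO2*, which cleaves carotenoids, fell from 17.5 ± 2.02 to 3.46 ± 1.55 (SD, n = 3, log2 fold change -2.10, adjusted p = 0.00639). It entered the test only through its parental values, and with any 1 of the parental libraries left out its mean was under 10 and it was not tested. *CYP1B1*, a cytochrome that can oxidise retinol, rose from 24.98 ± 5.26 to 55.0 ± 14.0 (adjusted p = 0.0176), *RBP5*, another retinol binding protein, from 16.8 ± 3.46 to 32.3 ± 3.41 (adjusted p = 0.0458) and the reductase *DHRS4* from 207 ± 4.24 to 288 ± 24.1 (adjusted p = 0.0155, SD, n = 3 each).
The remaining called genes of the list were *RDH11*, higher, and *RDH10*, *RDH13* and *FABP5*, lower, with log2 fold changes between -0.43 and 0.37. *ADH5* with means of 2005 and 2017 and *DGAT1* with 1291 and 1273 had adjusted p of 0.956 and 0.886. The retinol esterifying enzyme *LRAT* was at 443, 418 and 318 in parental and at 378, 352 and 387 in resistant libraries, with overlapping groups. *ALDH1A2* and *LRAT* were named after their values were seen. The call of *RBP5* was lost without the filter on low values, with quantile normalization and without parental library 1 or 3 or any resistant library (adjusted p 0.0897 to 0.131), and that of *CYP1B1* without parental library 1 or resistant library 8 or 9 (0.0523 to 0.0804). Without resistant library 9, *DHRS4* had an adjusted p of 0.0626 and 6 genes of the list were past the threshold in place of 10.

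Of 13 receptors that pair with RXR, 10 were tested, 3 rose and 2 fell, with a median log2 fold change of 0.24. *VDR*, the vitamin D receptor, had 169.9, 298 and 215 in parental and 429, 469.6 and 422 in resistant libraries. Parental library 2 was once more the highest of its group, below all resistant libraries (log2 fold change 0.98, standard error 0.19, adjusted p = 0.00229). *NR4A1*, an orphan receptor induced by many stimuli, fell from 1191 ± 89.7 to 701 ± 54.0 (SD, n = 3, log2 fold change -0.76, adjusted p = 0.000174). It lies at 52022832 to 52059507 of chromosome 12, within the stretch of lower genes around *RARG*. *NR1H2*, an oxysterol receptor, fell from 899.96 ± 28.6 to 698 ± 30.4 (SD, n = 3, log2 fold change -0.37, adjusted p = 0.00647). The fatty acid receptors *PPARA* and *PPARD* rose by log2 fold changes of 0.33 (adjusted p = 0.0492) and 0.29 (adjusted p = 0.0305). *THRA*, a thyroid hormone receptor, was at 888 ± 56.5 and 879 ± 65.0 (SD, n = 3), and *NR1H3* at 146 ± 23.2 and 166 ± 10.6 (adjusted p of 0.909 and 0.417). Without resistant library 7 or resistant library 8, 3 of the list were past the threshold in place of 5. The call of *PPARA* was lost with a pseudocount of 0.1, without the filter, without the trend and without parental library 1 or 2 or resistant library 7 or 8 (adjusted p 0.0507 to 0.181), and that of *PPARD* without parental library 3 or any resistant library (0.0507 to 0.112).

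All 18 corepressors and coactivators were tested, 7 rose and 3 fell, with small changes and a median log2 fold change of 0.05. *PRAME*, a tumour antigen known as a repressor of RAR signalling, fell from 880.3 ± 113 to 477 ± 24.6 (SD, n = 3, log2 fold change -0.88, standard error 0.11, adjusted p = 0.00019). *TRIM24*, a cofactor that binds the receptors, fell from 3546 ± 222 to 2542 ± 68.4 (SD, n = 3, log2 fold change -0.48, adjusted p = 0.000399). *SIN3A*, the scaffold of a histone deacetylase complex, rose by a log2 fold change of 0.40 (adjusted p = 0.00211), and the coactivators *NCOA3* and *NCOA2* by 0.39 and 0.38 (adjusted p = 0.00616 and 0.0077). *NCOR1*, *CREBBP*, *EP300* and *MED1*, named after their values were seen, rose by 0.26 to 0.35. *TBL1XR1*, a subunit of corepressor complexes, and *CARM1*, an arginine methyltransferase, had log2 fold changes of 0.03 and -0.12 and did not pass (adjusted p of 0.781 and 0.186).

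Of 26 genes known to respond to retinoic acid, 13 were tested, 8 rose and 1 fell, with a median log2 fold change of 0.65. *NTRK2*, the receptor of the neurotrophin BDNF, rose most, with 89.3, 72.5 and 87.2 in parental and 407, 540.1 and 492 in resistant libraries. The groups were far apart (log2 fold change 2.51, standard error 0.16, adjusted p = 3.23e-06). The genes at the 3′ end of the *HOXA* cluster, the part that opens first under retinoic acid, followed. *HOXA2* had 126, 111 and 109 in parental and 313, 291 and 278 in resistant libraries, with no overlap (log2 fold change 1.35, adjusted p = 7.18e-05). *HOXA3* rose from 591 ± 72.7 to 1191 ± 78.9 (adjusted p = 5.82e-05) and *HOXA4* from 14.7 ± 6.87 to 36.7 ± 6.30 (SD, n = 3, adjusted p = 0.0214). These 3 genes are neighbours on chromosome 7. *HOXA4* (27128507 to 27130780) lies within the span of the more abundant *HOXA3* (27106184 to 27152583), on the same strand. The part of *HOXA3* reads in the *HOXA4* values was not tested. In contrast, *HOXB1*, *HOXB2* and *HOXB4* were listed at 0 in all libraries. *CDX2*, a homeobox factor of the gut, rose from 511 ± 85.5 to 872 ± 159 (adjusted p = 0.0033) and *FOXA1*, a pioneer factor of endoderm, from 4137 ± 991 to 6391 ± 512 (SD, n = 3, adjusted p = 0.00453).
*MEIS2*, a partner of HOX proteins, was the gene of the list that fell, with a log2 fold change of -0.59. *RAI14* and *TSHZ1*, with log2 fold changes of 0.03 and -0.09, did not pass (adjusted p of 0.794 and 0.378). Several of the classical response genes were too low for the test. *CDX1* and *STRA8* were listed at 0 in all libraries. *TGM2*, tissue transglutaminase, had 1.12, 0.608 and 1.81 in parental and 3.85, 5.72 and 29.8 in resistant libraries. *RARRES1* had 0.455, 2.74 and 5.57 in parental and 25.1, 4.13 and 4.15 in resistant libraries, and its groups overlapped. For *TGM2* the groups did not overlap, with every parental value under that of 3 reads. A single resistant library held by far the highest value of each of the genes *TGM2* and *RARRES1*. *MEIS2*, *TGM2*, *RARRES1* and the genes listed at 0 were named after their values were seen. The call of *HOXA4* was lost without parental library 1 or 2 or resistant library 8 or 9 (adjusted p 0.0506 to 0.0769).

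**Figure D4:**
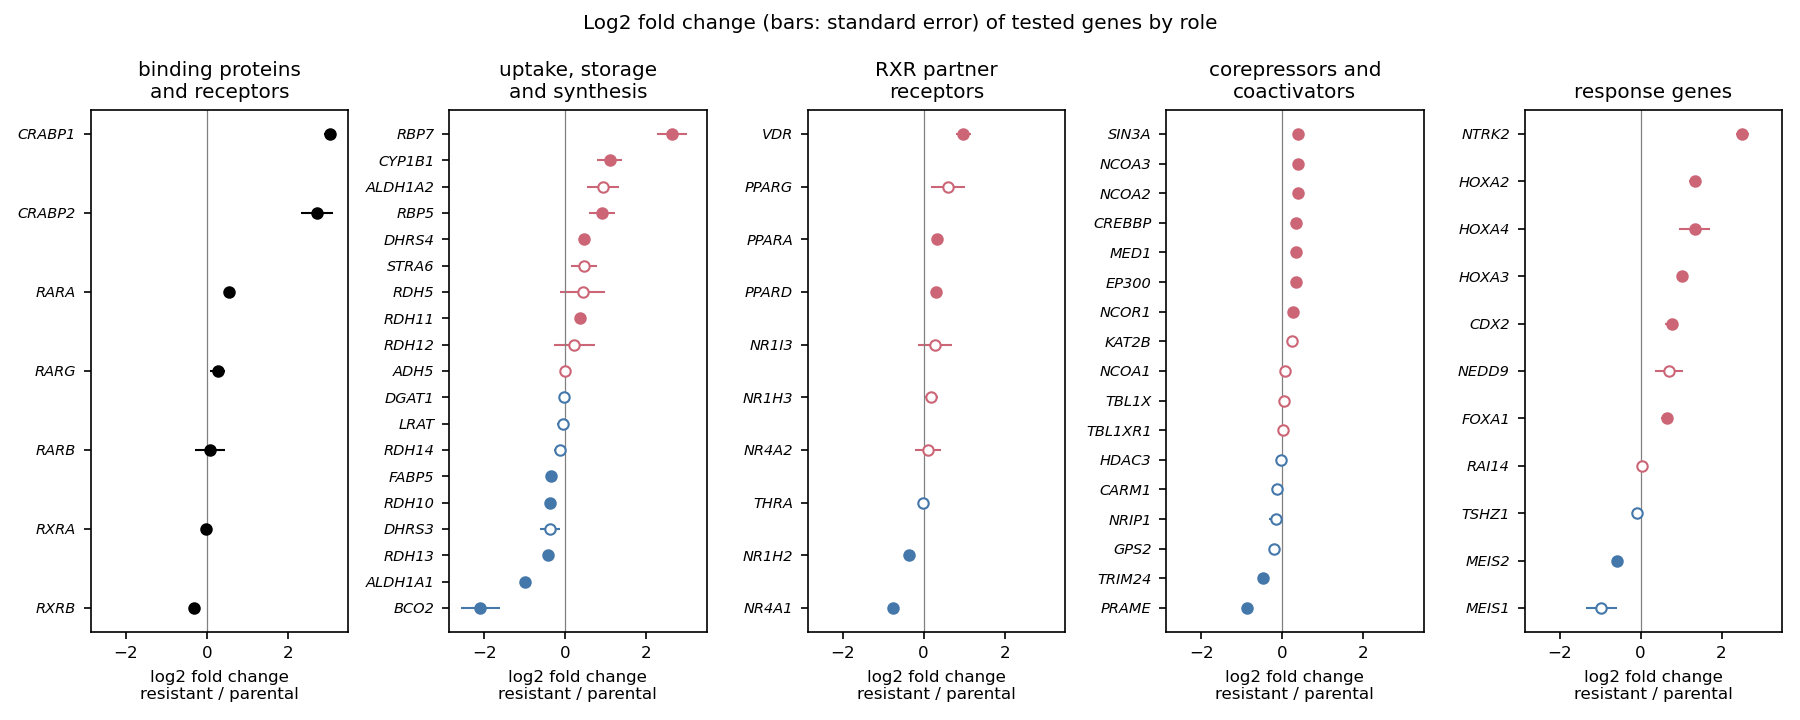
Log2 fold change (resistant over parental, x axis; bars are the standard error) of the 7 tested binding protein and receptor genes (black, no test) and of tested genes of the 4 other lists, a few genes not reported here left out, where filled points had an adjusted p under 0.05 and open points did not (red above 0, blue below 0). *CRABP1*, *CRABP2*, *RBP7* and *NTRK2* lie farthest to the right, between 2.51 and 3.05, and *BCO2* farthest to the left, at -2.10.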

How the data were processed

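Total RNA of parental and onvansertib-resistant H526 cells was sequenced in 3 libraries per group. The authors trimmed the reads with Trimmomatic 0.38, used RSEM 1.3.1 to align and quantify them against GRCh38 (Gencode v43) and scaled the resulting gene counts by DESeq2 size factors (version 1.30.0 in the submitters' notes). What they deposited is this scaled signal, which has no negative values and is no count table. From 55.5% to 64.7% of a library's low values fell within 0.1 of a whole number of read steps, so whole reads were not recovered and the study's count test could not be run. Dividing each library's sum by that step gave the estimated number of reads assigned to genes, used here as the depth.

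Of 62757 rows, 47 second copies of pseudoautosomal genes were left out. Symbols, positions and transcript lengths came from Gencode v44 (62639 of 62710 rows matched). Where the mean over the libraries reached 10, log2(value + 1) went into limma 3.58.1 under R 4.3.3, with the trend option and no term but condition. P-values were adjusted by Benjamini-Hochberg and called under 0.05. The fold change on this scale understates that of low genes. The fit was tested on artificial data with 50 genes changed by each of 4 folds. Called were 18 of 50 at 1.5-fold, 26 at 2-fold, 41 at 4-fold and 44 at 8-fold, and 4.44% of the calls were false. A gene that did not pass may thus still have changed. Far fewer genes were changed there than were called in the real libraries, so these shares need not hold for them. Tables and plots were made in Python 3.11.15 (pandas 2.3.3, numpy 2.4.6, matplotlib 3.10.9).

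The members and lists were chosen with earlier results of these data known. Named in each list were up to 6 called genes with the largest absolute log2 fold change and up to 2 tested genes that were not called with the highest mean. The fit was repeated with a pseudocount of 0.1 or 10, without the filter or with one at 50, with recomputed median-of-ratios scaling, with quantile normalization, without the trend and without each library in turn, and the shares with other gene lengths. Protein sequences were not used here. Some genes of the lists, which the counts include, are not reported here by name.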

Additional observations from a re-analysis of the deposited data

How the results depend on the processing

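Under the alternatives in which they were tested, no called gene of the pathway lists named by rule changed direction. *BCO2*, *RBP5*, *CYP1B1* and *HOXA4* fell under the filter when it was set at 50, and *BCO2* also did so when any 1 parental library was left out. As a description, the log2 fold change ranged from 2.91 to 3.19 for *CRABP1*, from 2.39 to 3.31 for *CRABP2*, from 0.52 to 0.61 for *RARA* and from -0.36 to -0.24 for *RXRB*, while those of *RARB* (-0.16 to 0.38) and *RXRA* (-0.04 to 0.0048) took both signs. With a library left out, the genes past the threshold over the whole table numbered 4784 to 5618 in place of 6161. The count was 6 to 10 for uptake, storage and synthesis, 3 to 4 for RXR partners in place of 5, 7 to 11 for corepressors and coactivators and 7 to 9 for response genes; fewer libraries enter these fits. With the mean transcript length, *RARA* made up 57.6% and 62.4% of the RAR sum in parental and resistant cells. With no division by length, *RXRB* made up 77.0% and 73.3% of the RXR sum. *CRABP1* then made up 57.0% of the binding protein sum in parental cells, where library 2 had 41.9%, and 62.3% in resistant cells. Family sums under these lengths, added after the data were seen, are given with their order above. Depth limits *RXRG*, *CYP26A1* and *CYP26B1*, whose values reach at most 12.1. No paired analysis was possible because the labels number the parental libraries 1 to 3 and the resistant libraries 7 to 9 and do not say which were extracted together.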
